A study of Mus musculus with 7 samples.

Results

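The fatty acid elongases (*Elovl1* to *Elovl7*) and the desaturases *Fads1*, *Fads2* and *Fads3* were examined in liver RNA-seq data. The 10 genes were taken by symbol, and all 10 were found among the 23347 genes of the count table, 7 of the *Elovl* and 3 of the *Fads* family. Livers came from male C57BL/6 mice that entered the diet at 6 to 8 weeks of age and stayed for 15 weeks on CDAHFD, a high-fat diet without choline that is made up with free L-amino acids and brings on steatohepatitis. The control group of 4 mice was *B4galt1* flox/flox (labelled WT), littermates in which *B4galt1*, encoding a galactosyltransferase of N-glycan synthesis, is flanked by loxP sites. The other group of 3 mice was *B4galt1* hep-/- (labelled B4galt1-HKO), the same floxed allele with Alb-Cre, a recombinase driven by the albumin promoter and therefore directed to hepatocytes. Each library held the RNA of whole liver from 1 mouse, and livers of chow-fed mice were not analysed here.

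ELOVL proteins are membrane enzymes of the endoplasmic reticulum that carry out the condensation step, the first and slowest step of each round in which malonyl-CoA lengthens a fatty acyl-CoA. Each member prefers certain substrates: ELOVL6 turns palmitate into stearate, ELOVL5 and ELOVL2 lengthen polyunsaturated fatty acids, and ELOVL1, ELOVL3, ELOVL4 and ELOVL7 act mainly on saturated or very long chains. FADS1 and FADS2 are front-end desaturases, which insert a double bond between an existing double bond and the carboxyl end and, together with ELOVL5 and ELOVL2, turn dietary linoleic and α-linolenic acid into arachidonic and docosahexaenoic acid. Liver is a main site of this conversion.

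The libraries held between 30608271 and 39668509 counts, so that 3 counts, the limit below which a gene was not told from absence, correspond to 0.0756 to 0.0980 CPM (counts scaled to a common library size). All 3 libraries labelled hep-/- were smaller than the flox/flox libraries, and mitochondrially encoded transcripts took 14.4% to 22.6% of their counts against 3.88% to 8.0% in flox/flox libraries. A fit without these transcripts is given at the end, and any other part of this share in the results was not tested. *B4galt1* did not separate the labels. Its level was 48.7, 53.0, 49.2 and 51.6 CPM in flox/flox replicates 1 to 4 and 28.4, 23.9 and 53.7 CPM in hep-/- replicates 1 to 3, so that the library labelled hep-/- replicate 3 lay above all flox/flox libraries (log2 difference -0.52 ± 0.26, edgeR adjusted p = 0.181; two-sided exact permutation test, p = 0.143, where 0.0286 is the smallest p that 4 against 3 mice allow). Without this library the log2 difference of *B4galt1* was -0.96 (adjusted p = 0.0139 by edgeR). As the library was set apart by this same gene, that p-value does not test the labels. A count per gene in whole liver cannot show whether the floxed allele was recombined in hepatocytes. Every group is therefore named by its label. Log2 differences and counts of called genes by edgeR are, for the most part, given with and without hep-/- replicate 3. Hepatocyte markers were abundant in all 7 livers, with *Alb*, which encodes albumin, at 57197 CPM or more. In whole liver, fewer cells of a type and less RNA per cell cannot be told apart.

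*Fads2* and *Elovl5* carried the largest share of their families. CPM was normalized by the trimmed mean of M values (TMM) and divided by gene length in kilobases (kb) to compare levels between genes. In flox/flox livers *Fads2* stood highest at 423 ± 85.1 CPM per kb (SD, n = 4), followed by *Elovl5* at 237 ± 73.6, *Elovl2* at 142 ± 30.1 and *Fads1* at 109 ± 18.5 CPM per kb. These 4 genes are those of the polyunsaturated pathway. *Elovl1* came next at 11.3 ± 2.19 and *Elovl6* ranged from 2.96 to 4.29 CPM per kb. *Fads3* stood at 2.23 ± 0.890, *Elovl3* at 1.45 ± 0.513 and *Elovl7* at 0.669 ± 0.229 CPM per kb, all SD with n = 4. Between *Fads1* and *Elovl1* the mean fell by a factor of 9.65, the widest gap among the 9 genes with over 3 counts, and the ranges did not overlap in either group. *Elovl5*, *Elovl2* and *Fads1* kept this order in each of the 7 mice, although their ranges over flox/flox mice overlapped from neighbour to neighbour. *Fads2* exceeded *Elovl5* in all 4 flox/flox mice and in 2 of the 3 mice labelled hep-/-. In hep-/- replicate 3 *Elovl5* stood at 291 and *Fads2* at 256 CPM per kb. *Elovl6*, *Fads3*, *Elovl3* and *Elovl7* overlapped from neighbour to neighbour in both groups. *Elovl4*, the elongase of ultra-long chains in retina, skin and testis, had 2 counts in flox/flox replicate 1, 1 count in hep-/- replicate 3 and 0 in the other 5 mice, so that it lay at or under the limit of 3 counts everywhere and was not tested.

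**Figure D1:**
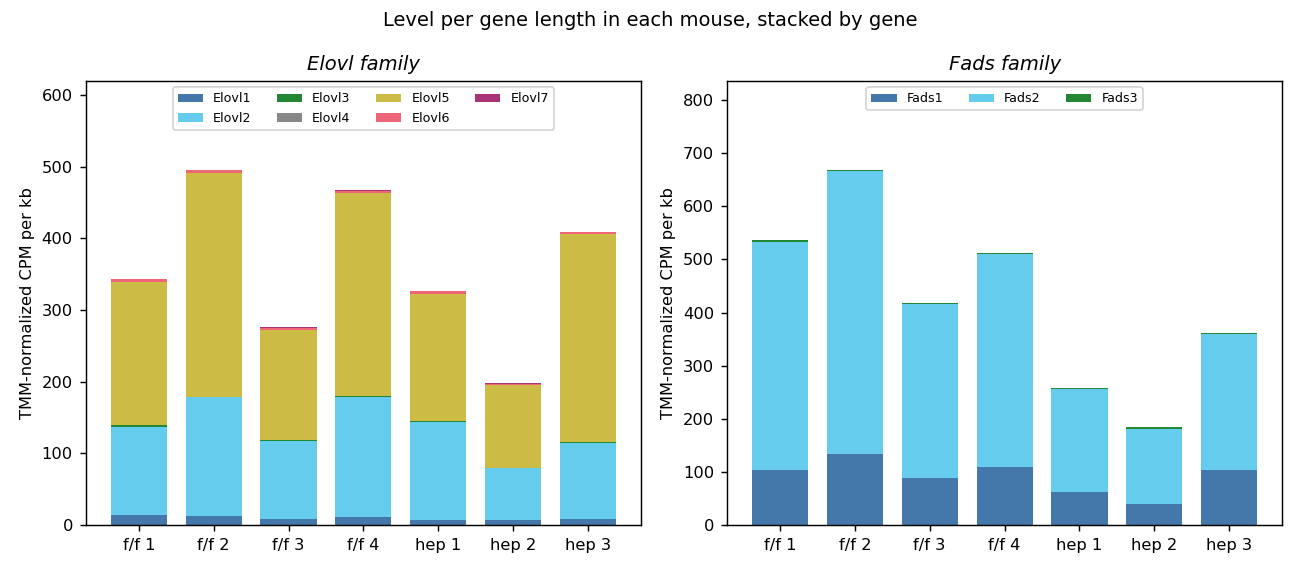
TMM-normalized CPM per kb (vertical axis, from 0) of the *Elovl* family (left) and the *Fads* family (right), stacked by gene, in each flox/flox mouse (f/f) and each mouse labelled hep-/- (hep). *Elovl5* and *Elovl2* make up most of each left bar and *Fads2* most of each right bar.

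To show where the abundant members start, the 250 bases before the transcription start of *Fads2*, *Elovl5* and *Elovl2* are printed 5′ to 3′, from the RefSeq annotation of GRCm38.p6. The counts were made on GRCm39 according to the submitters' notes, so these coordinates belong to the promoter sequences alone. Capitals mark matches, on either strand, to short motifs, namely the E-box CACGTG, the GC box GGGCGG, the CCAAT box CCAAT and the TATA box TATAAA. One fixed form each of the sterol regulatory element and of the direct repeat bound by PPAR and RXR was searched as well.
*Fads2*, chr19:10101504-10101753, minus strand: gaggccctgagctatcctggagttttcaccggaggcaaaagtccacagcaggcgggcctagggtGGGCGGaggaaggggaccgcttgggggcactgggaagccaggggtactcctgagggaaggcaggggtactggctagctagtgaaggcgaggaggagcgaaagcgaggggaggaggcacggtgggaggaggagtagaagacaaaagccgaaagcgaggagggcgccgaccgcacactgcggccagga
*Elovl5*, chr9:77917115-77917364, plus strand: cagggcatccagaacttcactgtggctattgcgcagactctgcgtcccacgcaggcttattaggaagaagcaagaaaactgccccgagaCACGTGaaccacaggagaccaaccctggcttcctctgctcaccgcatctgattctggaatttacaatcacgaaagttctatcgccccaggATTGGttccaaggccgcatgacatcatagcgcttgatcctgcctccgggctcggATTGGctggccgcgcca
*Elovl2*, chr13:41220404-41220653, minus strand: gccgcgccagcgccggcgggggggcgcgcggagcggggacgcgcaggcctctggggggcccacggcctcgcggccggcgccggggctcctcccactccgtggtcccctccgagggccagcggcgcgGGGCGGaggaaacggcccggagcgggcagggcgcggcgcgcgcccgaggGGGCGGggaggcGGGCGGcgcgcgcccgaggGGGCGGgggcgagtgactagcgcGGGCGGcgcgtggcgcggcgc
The *Fads2* window held 1 GC box, the printed *Elovl2* window 5 GC boxes, and the *Elovl5* window 1 E-box and 2 CCAAT boxes. A further *Elovl2* window in the table, for another start on the same strand, held 0 GC boxes at 79.6% GC. Among all 32851 promoter windows of this length in the table, 32.7% held a GC box, 33.8% a CCAAT box and 6.02% an E-box. GC content was 64.8% for *Fads2*, 55.6% for *Elovl5* and 87.2% for *Elovl2*, against a median of 52.4% over all windows. No window of the 8 members in the table held the TATA box or the searched form of the sterol regulatory element or direct repeat. Across all windows 0.0731% held the sterol regulatory element, 0.0335% the direct repeat and 12.4% the TATA box. A match here is a run of letters and not a site shown to be bound.

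Differences between the groups are given as log2 fold changes, livers labelled hep-/- minus flox/flox, called log2 differences here, with their standard error (SE). To determine whether the genes differed, edgeR's quasi-likelihood test was run on the 15179 genes with enough counts, 9 of the 10 among them. Calls required a Benjamini-Hochberg adjusted p below 0.05 together with a log2 difference above 0.58 in size. Only *Fads2* was called, and it was lower in the livers labelled hep-/-. That is 1 lower and 0 higher of 9, where 7.83% of all tested genes were called lower and 15.8% in either direction. DESeq2 also called *Fads2* lower and no other member, where it called 10.2% of genes lower and 11.2% higher. At an unadjusted edgeR p under 0.05, *Elovl1*, *Fads1* and *Fads2* were lower, 3 of 9, as were 16.1% of all tested genes. Of the 9 genes 7 had a negative log2 difference, with a median of -0.43 over the 9, against 48.7% negative and a median of 0.02 over all tested genes. Without hep-/- replicate 3, *Fads2*, *Fads1* and *Elovl3* were called lower and none higher, where 7.51% of the genes of that fit were called lower and 6.28% higher. Of fits that left out another mouse, those without flox/flox replicates 1 to 4 called 7.41%, 3.16%, 4.71% and 5.35% of genes lower, and those without hep-/- replicates 1 and 2 called 5.21% and 3.84%. Lower calls took 15.9% of genes with limma on log2(FPKM + 1), 17.8% on log2(FPKM + 0.1), 9.53% with voom and 4.05% with the replicate number as a block, and the members called there numbered 3, 4, 3 and 0.

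*Fads2* encodes the desaturase that takes the first step from linoleic and α-linolenic acid. Its level was 1250, 1550, 953 and 1163 CPM in flox/flox replicates 1 to 4 and 568, 407 and 744 CPM in hep-/- replicates 1 to 3. All 3 mice labelled hep-/- lay below every flox/flox mouse, as did 15.0% of all tested genes. The group means were 1229 ± 247 (SD, n = 4) and 573 ± 169 CPM (SD, n = 3), so that the latter was 46.6% of the former. The log2 difference was -1.10 ± 0.27 (SE; edgeR adjusted p = 0.0202), and -1.34 (adjusted p = 0.0146) without hep-/- replicate 3. The call was lost without flox/flox replicate 2 (log2 difference -0.98, adjusted p = 0.0656) and without hep-/- replicate 1 (-1.11, adjusted p = 0.0514), while the direction held in all 7 fits that left out a mouse.

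*Fads1*, whose product makes arachidonic acid from dihomo-γ-linolenic acid, neighbours *Fads2* on chromosome 19, with *Fads3* on the other side of *Fads2*. *Fads1* stood at 365, 471, 314 and 389 CPM in flox/flox replicates 1 to 4 and at 217, 142 and 370 CPM in hep-/- replicates 1 to 3. Replicates 1 and 2 labelled hep-/- lay below all flox/flox mice and replicate 3 within their range. The log2 difference was -0.66 ± 0.30 (SE; edgeR adjusted p = 0.146), short of the threshold, and -1.11 ± 0.26 (SE; edgeR adjusted p = 0.0245) without hep-/- replicate 3, which passed. It was -0.39 (edgeR adjusted p = 0.362) without hep-/- replicate 2. The ratio of *Fads1* to *Fads2* per length was 0.240, 0.250, 0.270 and 0.275 in flox/flox replicates 1 to 4 and 0.314, 0.288 and 0.408 in hep-/- replicates 1 to 3. The groups did not overlap in this ratio, which was not tested. *Fads2* accounted for 79.1% ± 0.950 (SD, n = 4) of *Fads* family RNA per length in the flox/flox group, while the hep-/- label had 74.0% ± 2.86 (SD, n = 3).

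*Fads3*, a desaturase that acts on sphingoid bases, was far lower than its neighbours and varied most among flox/flox mice of the 9 tested genes, with a coefficient of variation of 39.8%. It stood at 10.5, 8.68, 6.09 and 3.90 CPM in flox/flox replicates 1 to 4 and at 5.16, 15.4 and 5.30 CPM in hep-/- replicates 1 to 3. A single mouse, hep-/- replicate 2, was above all others, and the groups overlapped. The log2 difference was 0.24 ± 0.43 (SE; edgeR adjusted p = 0.725) and 0.48 (adjusted p = 0.493) without hep-/- replicate 3. The sign turned without hep-/- replicate 2 (-0.48, edgeR adjusted p = 0.439) and, with all 7 mice, under voom (-0.24) and with the replicate number as a block (-0.13), so that no direction held.

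**Figure D2:**
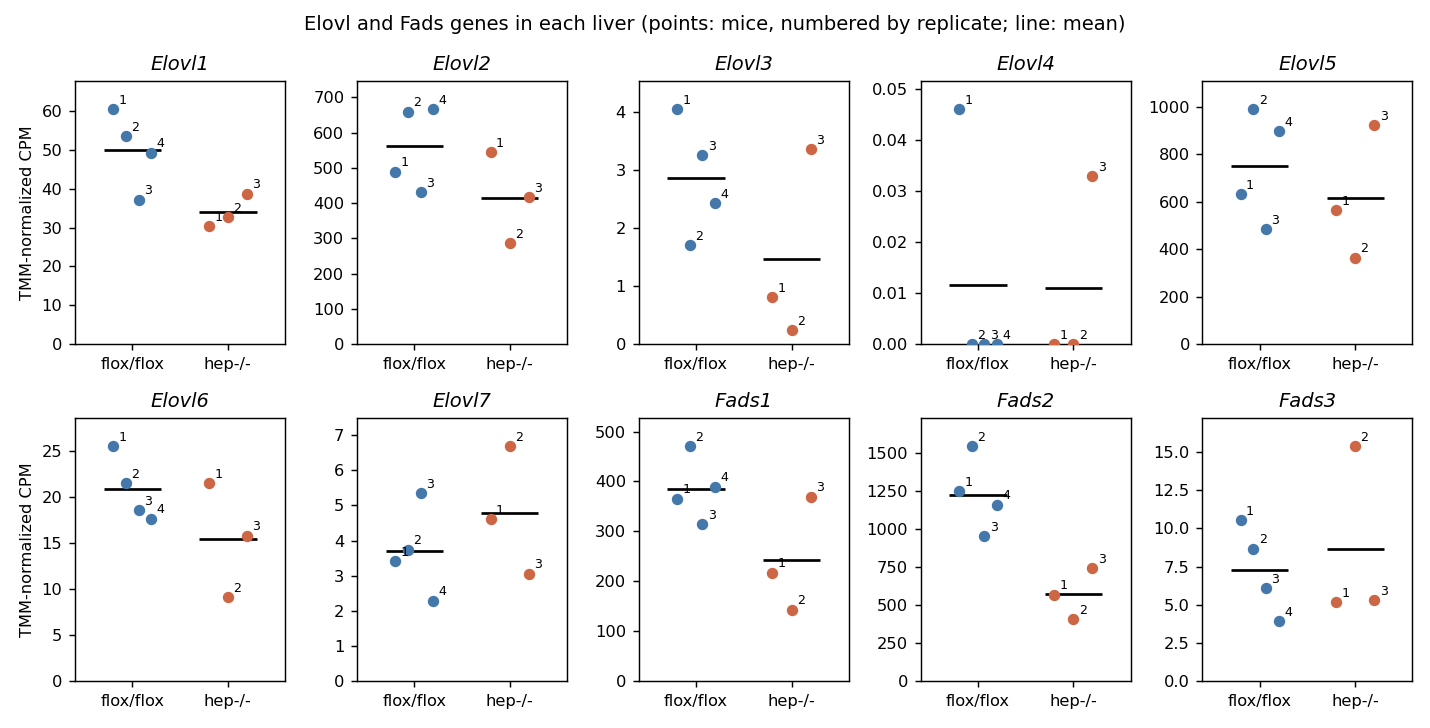
TMM-normalized CPM (vertical axes, each from 0) of the 10 genes in each liver, with mice as points numbered by replicate and the group mean as a line. The 3 mice labelled hep-/- sit between 407 and 744 CPM for *Fads2*, below the 4 flox/flox mice, and the groups overlap for the other 9 genes.

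The elongases of polyunsaturated fatty acids overlapped between the groups and were not called by edgeR. *Elovl5*, which lengthens the products of FADS2, stood at 632, 990, 485 and 898 CPM in flox/flox replicates 1 to 4 and at 564, 365 and 921 CPM in hep-/- replicates 1 to 3. The groups overlapped, and hep-/- replicate 3 was the second highest of the 7. Its log2 difference was -0.28 ± 0.33 (SE; edgeR adjusted p = 0.587) and -0.70 (adjusted p = 0.166) without hep-/- replicate 3, neither past the threshold. It was -0.02 (edgeR adjusted p = 0.982) without hep-/- replicate 2. *Elovl2*, which acts on the longer chains on the way to docosahexaenoic acid, stood at 489, 659, 430 and 666 CPM in flox/flox replicates 1 to 4 and at 544, 286 and 417 CPM in hep-/- replicates 1 to 3. The groups overlapped through hep-/- replicate 1. Its log2 difference was -0.43 ± 0.26 (SE; edgeR adjusted p = 0.275) and -0.44 (adjusted p = 0.341) without hep-/- replicate 3. It ran from -0.69 without hep-/- replicate 1 to -0.22 without hep-/- replicate 2, and was called in neither. With limma on log2(FPKM + 0.1), *Elovl2* just passed as lower (-0.581, adjusted p = 0.0485), where 17.8% of genes were called lower. *Elovl5* and *Elovl2* together gave most *Elovl* family RNA per length, with 59.3% ± 3.23 for *Elovl5* and 36.2% ± 2.39 for *Elovl2* in flox/flox livers (SD, n = 4). The label hep-/- had shares of 61.2% ± 8.66 and 34.7% ± 8.30 (SD, n = 3), differences smaller than the SD between mice. The ratio of *Elovl2* to *Elovl5* per length was 0.532 to 0.709 in flox/flox mice. It was 0.771, 0.628 and 0.362 in hep-/- replicates 1 to 3, values that lay above, within and below the flox/flox range.

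*Elovl6*, the elongase of palmitate in *de novo* lipogenesis, stood at 25.5, 21.5, 18.6 and 17.6 CPM in flox/flox replicates 1 to 4. It stood at 21.5, 9.08 and 15.8 CPM in hep-/- replicates 1 to 3, where replicates 2 and 3 lay below the flox/flox range and replicate 1 within it. The log2 difference was -0.43 ± 0.27 (SE; edgeR adjusted p = 0.294) and -0.45 (adjusted p = 0.368) without hep-/- replicate 3. For this gene too it was largest without hep-/- replicate 1 (-0.76, edgeR adjusted p = 0.0945) and smallest without hep-/- replicate 2 (-0.16, adjusted p = 0.710). *Elovl1*, which makes the saturated and monounsaturated very long chains of sphingolipids, stood at 60.4, 53.4, 37.2 and 49.2 CPM in flox/flox replicates 1 to 4 and at 30.4, 32.6 and 38.7 CPM in hep-/- replicates 1 to 3. The groups overlapped only through flox/flox replicate 3, which lay below hep-/- replicate 3. Its log2 difference was -0.56 ± 0.20 (SE; edgeR adjusted p = 0.0787), just short of both thresholds, and -0.68 (adjusted p = 0.0752) without hep-/- replicate 3. Without flox/flox replicate 3 *Elovl1* was called (log2 difference -0.68, adjusted p = 0.0491). *Elovl7* was low in all livers, at 3.40, 3.74, 5.34 and 2.29 CPM in flox/flox replicates 1 to 4 and at 4.61, 6.70 and 3.06 CPM in hep-/- replicates 1 to 3, with its highest value in hep-/- replicate 2. Its log2 difference was 0.37 ± 0.36 (SE; edgeR adjusted p = 0.498), 0.05 (adjusted p = 0.951) without that library and 0.60 (adjusted p = 0.277) without hep-/- replicate 3.

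*Elovl3*, an elongase of saturated and monounsaturated chains first known from brown fat and skin, had the largest spread of the tested members within the hep-/- group, with a coefficient of variation of 113%. It stood at 4.05, 1.71, 3.26 and 2.43 CPM in flox/flox replicates 1 to 4 and at 0.812, 0.241 and 3.36 CPM in hep-/- replicates 1 to 3. The lowest of these rested on 8 counts and the next on 25, while hep-/- replicate 3 had 102 counts and lay within the flox/flox range. The log2 difference was -0.96 ± 0.67 (SE; edgeR adjusted p = 0.343), not past the threshold, and -2.45 ± 0.60 (SE; edgeR adjusted p = 0.0276) without hep-/- replicate 3, which passed. The value was -0.46 (edgeR adjusted p = 0.640) without hep-/- replicate 2, the library with 8 counts.

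**Figure D3:**
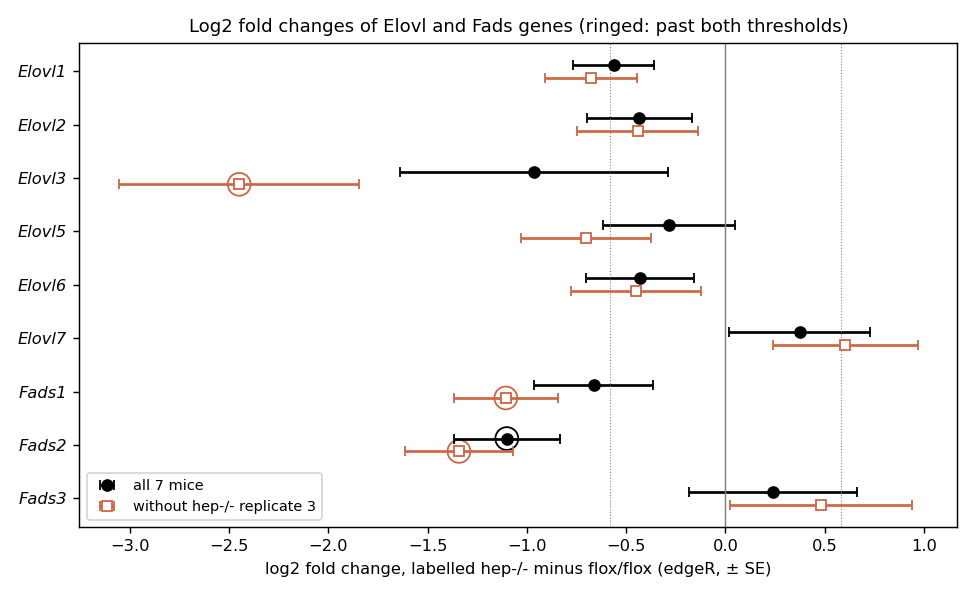
Log2 fold change of the 9 tested genes (horizontal axis, livers labelled hep-/- minus flox/flox, with bars of 1 standard error) with all 7 mice (filled circles) and without hep-/- replicate 3 (open squares). Rings mark genes past both thresholds, which are *Fads2* with all mice and *Fads1*, *Fads2* and *Elovl3* without that library, and dotted lines mark 0.58 in each direction.

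Liver *Elovl3* is known in mice to follow the circadian clock and to be higher in males, so genes of both kinds were measured beside it. Their lists were chosen with earlier results of these data known. Of 16 tested clock genes 5 were called higher and 2 lower, where 8.0% of all tested genes were called higher and 7.83% lower. Without hep-/- replicate 3 the counts were 4 and 1, since *Cry1* and *Nr1d1* were no longer called. *Dbp*, a clock output gene, stood at 163, 130, 67.8 and 179 CPM in flox/flox replicates 1 to 4 and at 43.9, 56.7 and 16.0 CPM in hep-/- replicates 1 to 3. *Bmal1*, a core activator of the clock, stood between 1.30 and 2.78 CPM in flox/flox mice and at 3.47, 6.79 and 18.7 CPM in hep-/- replicates 1 to 3. Its highest value was thus in hep-/- replicate 3, the mouse with the highest *Elovl3* of its group. Of 8 tested genes known to be higher in male liver 6 were called lower, and of 9 tested genes known to be higher in female liver 6 were called higher, against the same shares of 7.83% and 8.0% of all tested genes. Without hep-/- replicate 3 the counts over the same genes were 6 of 8 and 5 of 9, since *Cyp2b9* was no longer called. In hep-/- replicate 3, 5 of the 8 male-biased genes lay below the flox/flox range, and *Slco1a1*, *Mup20* and *Selenbp2* lay within it, as *Elovl3* did. The part of clock and sex-biased genes in the *Elovl3* values was not tested.

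The 9 genes did not vary in parallel. Relative to the flox/flox mean, hep-/- replicate 2 had the lowest value of all mice in 6 of the 9 tested genes, namely *Elovl2*, *Elovl3*, *Elovl5*, *Elovl6*, *Fads1* and *Fads2*, and the highest in *Elovl7* and *Fads3*. In hep-/- replicate 3, log2 values relative to the flox/flox mean were -0.72 for *Fads2* but -0.06 for *Fads1*, 0.29 for *Elovl5* and 0.23 for *Elovl3*. Over the 7 mice, *Fads1* followed *Fads2* most closely of the members compared (Pearson r = 0.93 of log2 CPM), ahead of *Elovl1* (0.88), *Elovl2* (0.76), *Elovl6* (0.73) and *Elovl5* (0.70). Among 8383 genes with a mean of at least 10 CPM, those most like *Fads2* were *Abhd2* (r = 0.99), which encodes a serine hydrolase, *Clpb* (0.99), a mitochondrial chaperone, and *Gars* (0.99), a glycyl-tRNA synthetase. These values describe 7 libraries that share the group difference, and no test was made of them.

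**Figure D4:**
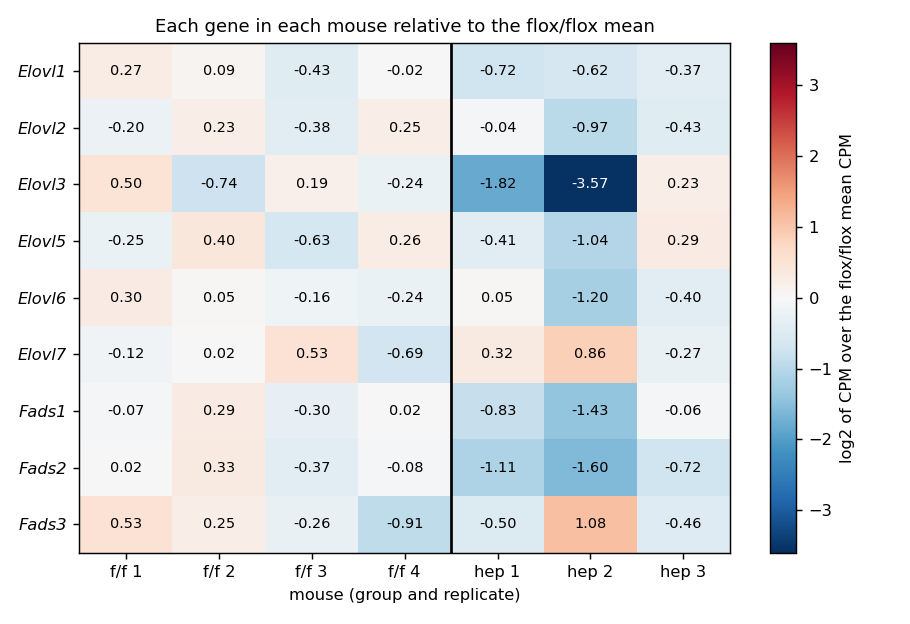
Log2 of each mouse's CPM over the flox/flox mean CPM for the 9 tested genes (rows) in flox/flox mice (f/f) and mice labelled hep-/- (hep), with blue below and red above that mean. The column of hep-/- replicate 2 holds the lowest values of 6 genes, -3.57 for *Elovl3* among them, and the highest of *Elovl7* and *Fads3*.

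Cell type markers, whose lists were also chosen with earlier results known, moved with some of these values. Cholangiocyte markers, 6 of 6 detected and none called, summed to 254 to 658 CPM in flox/flox mice and to 415, 874 and 259 CPM in hep-/- replicates 1 to 3. A single gene, *Spp1*, which macrophages can express too, made up 91.1% to 95.3% of each sum. The other 5 markers summed to 39.0, 36.6, 40.7 and 14.2 CPM in flox/flox replicates 1 to 4 and to 19.5, 77.5 and 23.1 CPM in hep-/- replicates 1 to 3. With or without *Spp1*, the highest sum was in hep-/- replicate 2, where *Fads3* and *Elovl7* were highest, and the lowest in flox/flox replicate 4, where both were lowest. Macrophage and Kupffer cell markers summed to 979 to 1985 CPM in flox/flox mice and to 505 to 552 CPM in mice labelled hep-/-, and 6 of 10 were called lower, where 7.83% of all tested genes were. Without hep-/- replicate 3 it was 3 of 10, against 7.51%. Of 8 hepatocyte markers *Cyp2e1* was called lower, joined by *Cps1* without hep-/- replicate 3. No stellate cell, lymphocyte or neutrophil marker was called with or without that library. Of 7 endothelial markers *Kdr* was called lower, but not without hep-/- replicate 3 (edgeR adjusted p = 0.0931), and it kept the call in 2 of 7 fits that left out a mouse. Adipocyte markers summed to at most 0.181 CPM in any mouse, pancreatic acinar markers to at most 1.81 CPM and skeletal muscle markers to at most 1.30 CPM. The part of cell composition in the values of the *Elovl* and *Fads* genes was not tested.

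The other genes of the pathway were taken from 7 lists, chosen with earlier results of these data known. Of 52 tested, 14 were called lower and 2 higher, where 7.83% of all tested genes were lower and 15.8% were called in either direction, with a median log2 difference of -0.40. Without hep-/- replicate 3 the counts were 14 and 0, and the smallest count of lower genes in a fit that left out a mouse was 7, without flox/flox replicate 2 or hep-/- replicate 2. In the elongation cycle, 2 of 6 were lower. *Hsd17b12*, the ketoacyl-CoA reductase of the second step, ranged from 93.1 to 147 CPM in flox/flox mice and from 40.2 to 79.6 CPM in mice labelled hep-/- (log2 difference -0.93, adjusted p = 0.0311 by edgeR, and -1.16 without hep-/- replicate 3). *Hacd3*, a dehydratase of the third step, had a log2 difference of -0.83 (adjusted p = 0.0258), and both were still called without that library. *Tecr*, which closes the cycle, had one of -0.08 (adjusted p = 0.812), and one of -0.08 without it. Of 5 tested desaturases other than the *Fads* genes above, *Degs1*, which desaturates dihydroceramide, was lower (-1.14, adjusted p = 0.00811), and so was *Fads6*, a relative of less known function (-1.01, adjusted p = 0.0282). Both were called without hep-/- replicate 3 as well, at -1.30 and -1.41. *Scd1*, the stearoyl-CoA desaturase, ranged from 70.0 to 205 CPM in flox/flox mice and from 118 to 226 CPM in mice labelled hep-/- (log2 difference 0.50, adjusted p = 0.351, and 0.24, adjusted p = 0.708, without hep-/- replicate 3).

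Electrons for desaturation come from cytochrome b5. *Cyb5b*, its mitochondrial outer membrane form, was the 1 of 5 tested genes called lower (-1.17, adjusted p = 0.0118 by edgeR), while *Cyb5a*, the form of the endoplasmic reticulum that serves desaturases, had a log2 difference of 0.18 (adjusted p = 0.670). The values without hep-/- replicate 3 were -1.37, called, and 0.07, not called. Of 6 genes that supply malonyl-CoA, 3 were lower, namely the citrate carrier *Slc25a1* (-0.78) and the acetyl-CoA-forming *Acly* (-1.04) and *Acss2* (-0.96). All 3 were called without hep-/- replicate 3 too, at -0.93, -1.29 and -1.13. Peroxisomes shorten very long chains and complete docosahexaenoic acid, and 3 of 13 such genes were lower, among them the transporter *Abcd3* (-1.01) and the bifunctional enzyme *Ehhadh* (-1.66), both given as log2 differences. Leaving out hep-/- replicate 3 gave -1.50 and -1.82, both called, and 4 of the 13 genes were called lower in that fit. Among 13 transcriptional regulators, the nuclear receptors *Rxra* (-1.15) and *Pparg* (-0.92) and the sterol-responsive *Srebf2* (-0.68) were lower, and *Mlxipl* (1.40), which encodes the carbohydrate-responsive factor ChREBP, and *Insig2* (1.23), which holds SREBP in the endoplasmic reticulum, were higher. *Srebf1*, a known activator of *Fads2*, *Fads1* and *Elovl6*, had a log2 difference of -0.13 ± 0.22 (SE; edgeR adjusted p = 0.702), and -0.10 without hep-/- replicate 3. *Insig2* stood at 627 CPM in hep-/- replicate 3 against 220 and 223 CPM in the other mice of its label, and without that mouse *Insig2* (0.53, adjusted p = 0.107), *Mlxipl* (1.31, adjusted p = 0.0660) and *Pparg* (-0.99, adjusted p = 0.0557) were not called, while *Rxra* (-1.23) and *Srebf2* (-0.79) were. Of 4 tested ceramide synthases, which use very long acyl-CoA, none was called with or without hep-/- replicate 3. Of the 16 called genes 7 kept the call in all 7 fits that left out a mouse, among them *Degs1*, *Cyb5b*, *Acly*, *Acss2*, *Ehhadh* and *Rxra*, and the other 9 kept it in 2 to 4 of them.

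**Figure D5:**
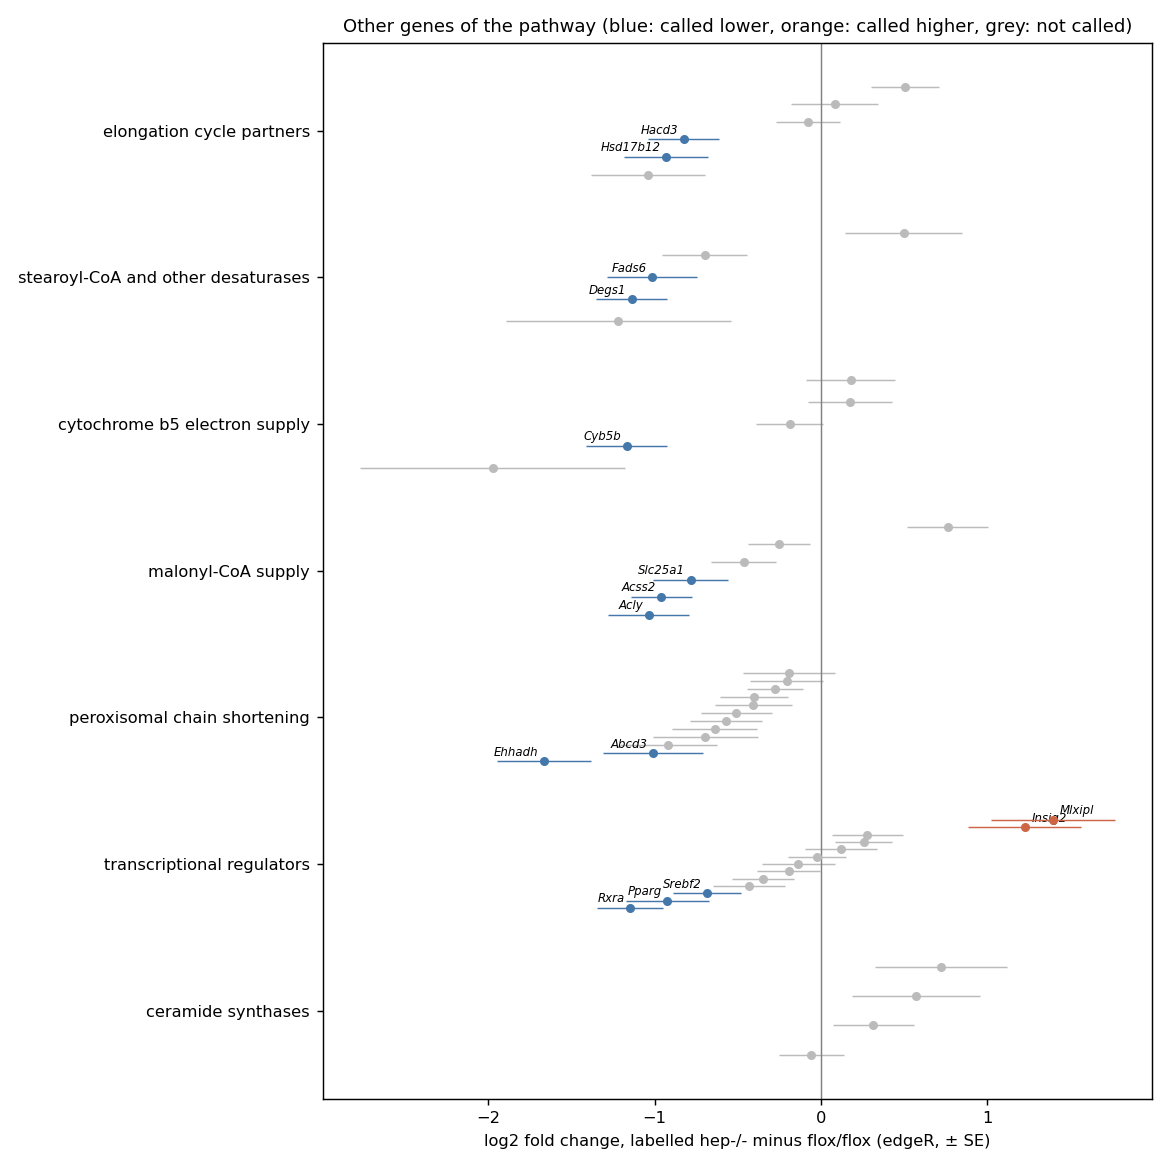
Log2 fold change (horizontal axis, livers labelled hep-/- minus flox/flox, with bars of 1 standard error) of the other tested genes of the pathway, grouped by list, with 1 gene called lower left out. The genes called lower (blue) and the 2 called higher (orange) are named, and genes in grey were not called.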

How the data were processed

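Liver RNA of 7 mice was analysed, 1 library per mouse. RNA had been isolated with TRIzol and libraries built with the VAHTS Universal V6 kit. The authors deposited raw counts per gene and, for the same genes, FPKM values. The submitters' processing notes name fastp, HISAT2, HTSeq, DESeq2, R 3.2.0 and the build GRCm39. The annotation and strand setting are not given in the sources used here. In 13374 genes (10 or more counts in all mice) deposited FPKM was checked to be count over gene length and library total, with 1 length for each gene. That length was used for CPM per kb.

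Genes were filtered by filterByExpr (minimum count 10, minimum total count 15), scaled by TMM and compared between groups by the quasi-likelihood method of edgeR 4.0.16 under R 4.3.3, with p-values adjusted by Benjamini-Hochberg over all 15179 genes. Standard errors came from the F statistic. Adjusted p-values judge the group difference against the spread between these mice, moderated over all genes. Alternatives were DESeq2 1.42.0, voom with quality weights and log2 FPKM with pseudocount 1 or 0.1 in limma 3.58.1, other normalizations and filters, the replicate number as a block, and each mouse left out in turn. On simulated counts with 200 changed genes, edgeR recovered 88.0% of those lowered by 2 on the log2 scale and 36.7% of those lowered by 1, among 14786 genes. In the data 2404 genes were called, far more than were changed in the simulation. These shares are therefore not the power for the genes studied here. The genes and lists were chosen with earlier results of these data known. The text names all 10 genes, *B4galt1*, the called genes of the 7 pathway lists (1 is counted but not reported here by name), marker genes where a list is described, and the 3 genes most like *Fads2*, the called member with the lowest adjusted p and the highest level per length. *Scd1*, *Tecr*, *Cyb5a*, *Srebf1*, *Dbp*, *Bmal1*, *Cry1*, *Nr1d1*, *Slco1a1*, *Mup20*, *Selenbp2*, *Cyp2b9* and *Spp1* were chosen after their values were seen. Promoter sequences came from RefSeq (GRCm38.p6) and were found for 8 of the 10 genes, not for *Elovl3* and *Fads1*.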

Additional observations from a re-analysis of the deposited data

Results flagged for a closer look

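Among 62 genes of the families and the pathway, with *B4galt1*, 3 had a flox/flox mouse far from the other 3, judged by its gap to the nearest mouse as a share of the group's range, where chance gives about 1 in 20. *Acaca*, the carboxylase that makes malonyl-CoA, was lowest in replicate 4 at 18.3 CPM (gap 0.896 of the range). *Srebf1* was lowest in replicate 3 at 24.2 CPM (0.843), and *Nr1h3*, which encodes the liver X receptor α, in replicate 2 at 76.1 CPM (0.857). None of the *Elovl* or *Fads* genes was among them, and groups of 3 mice were not examined this way.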

How the results depend on the processing

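Of 159 log2 fold changes of the 9 tested *Elovl* and *Fads* genes recomputed under alternatives, 143 kept their direction and side of the threshold, 10 passed it newly, 3 no longer passed and 3 changed sign. The last were all *Fads3*, at -0.24 with voom, -0.13 with the replicate number as a block and -0.48 without hep-/- replicate 2, in a range of -0.48 to 0.49 when a mouse was left out. Members called lower numbered 3 with limma on log2(FPKM + 1), 4 on log2(FPKM + 0.1) and 3 with voom, where 15.9%, 17.8% and 9.53% of genes were called lower, and from 0 to 3 when a mouse was left out. FPKM divides by totals that include mitochondrial transcripts, and with log2(FPKM + 0.1) the median of the same genes shifted by -0.13. With the 13 mitochondrially encoded genes left out of edgeR, *Fads2* was the 1 member called lower (log2 difference -1.10, adjusted p = 0.0185). Over all genes, 1189 were called lower and 1215 higher (50.5% higher). Calls numbered 1946 lower and 601 higher on log2(FPKM + 0.1), 561 higher on log2(FPKM + 1) (24.5% higher) and 242 higher on log2(FPKM + 1) without a filter, which left 0 pathway genes called higher. DESeq2 called 3255 genes against 2404. When a mouse was left out, from 474 to 1175 genes were lower and from 411 to 1291 higher, with 7 to 14 pathway genes lower and 0 to 3 higher. Family shares were the same on FPKM by construction.

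No pairing of the mice by replicate number was seen. Correlations of deviations from the group mean between equal numbers were -0.34, -0.03 and 0.08, and not every mouse correlated best with its own number. So few pairs cannot exclude a pairing. With the replicate number as a block, 0 members, 615 genes and 8 pathway genes were called lower and 652 genes and 1 pathway gene higher, and the log2 difference of *Fads2* was -1.14 (edgeR adjusted p = 0.0658). With 30608271 to 39668509 counts per library, depth limited the values of *Elovl4* (up to 2 counts) and *Elovl3* (from 8 counts).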
